A study of Mus musculus with 2 samples.

Results

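The genes described here encode the collagens, the laminins and the nidogens, the main fibre-forming and sheet-forming proteins of the extracellular matrix. They were taken as the protein-coding genes whose mouse symbol is a collagen chain (Col, a type number, a chain number), a laminin alpha, beta or gamma chain, or nidogen 1 or 2. This rule found 57 of 55536 annotated genes, or of 21951 protein-coding genes: 44 collagens, 11 laminins and 2 nidogens. Total RNA was sequenced from the hippocampus of adult 5xFAD/CAST mice, all male and 8 to 10 months old, in 2 libraries of a single group that the labels number as biological replicates 1 and 2 and tie to the same donor identifier. The 5xFAD line carries human transgenes, APP among them, with mutations of familial Alzheimer disease under a neuronal Thy1 promoter, and CAST is a wild-derived mouse strain, so a transgene-carrying hybrid background is shared by both libraries and mice without the transgenes were not analysed here. No comparison of conditions is therefore made, and each SD (n = 2) gives only the spread of these samples, which may be technical.

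The gene tables held 26128897 expected counts (estimated reads per gene) in replicate 1 and 28689423 in replicate 2. A count of 0 allows up to 3 counts, which is 0.115 and 0.105 CPM (counts scaled to the library total); these limits and the p-values below cover counting error. Levels are given as TPM (scaled by transcript length and depth), which may be compared between genes. All 8 hippocampal neuron markers were at 1 TPM or more in each library, where 60.5% of protein-coding genes were. They summed to 2992 TPM in replicate 1 and 3514 TPM in replicate 2. Of 7 striatum markers 6 reached 1 TPM in each library too, so this threshold does not test the hippocampal label. Markers of other tissues of the brain and its coverings differed between the libraries. The 12 choroid plexus markers summed to 1221 TPM in replicate 1 and 189.2 TPM in replicate 2, and all 12 were more than 2-fold lower in replicate 2. The 7 striatum markers summed to 157.7 and 63.24 TPM, and the 11 meningeal fibroblast markers to 171.5 and 97.14 TPM. Vessel markers were closer, at 136.4 and 125.4 TPM for 12 endothelial genes and 108.2 and 93.02 TPM for 11 mural genes. Log2 ratios of replicate 2 over replicate 1 are given after TMM scaling, which sets the bulk of genes to no change. Scaling on the ERCC spike-in RNAs in place of it moved the median of all genes to 0.27. Values of both libraries are given throughout, and the part of these tissues in the matrix genes' values was not tested.

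Collagens are built from 3 alpha chains wound into a triple helix, in which each triplet of residues opens with a glycine. Type IV collagen and laminin each form a sheet in the basement membrane, the thin layer around brain vessels and under the pia, and nidogens tie the sheets together. Adult brain tissue outside the vessels and meninges holds little fibrillar collagen, while some nonfibrillar collagens are made by neurons and take part in axon guidance and synapse formation. In bulk tissue such as this, fewer cells of a type and less RNA per cell cannot be told apart.

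Most of these genes were detected, at modest levels. Of the 57 genes, 39 reached 1 TPM in each library, namely 27 of 44 collagens, 10 of 11 laminins and both nidogens; 60.5% of all protein-coding genes did so. Their median was 2.59 TPM in replicate 1 and 1.91 TPM in replicate 2, below the protein-coding medians of 4.43 and 4.3 TPM. Together they summed to 293.3 and 256.2 TPM, of which collagens held 73.2% ± 0.197, laminins 25.3% ± 0.413 and nidogens 1.48% ± 0.216 (SD, n = 2). The 10 highest genes alone held 60% of that sum in replicate 1 and 63.7% in replicate 2. They were Col25a1, Col4a2, Lamb2, Col4a1, Col6a1, Lamb1, Lamc1, Col11a2, Col16a1 and Col19a1, so that basement membrane chains stood beside a neuronal transmembrane collagen and several collagens of other classes. Neighbours in this order were close: Col4a2, Lamb2 and Col4a1 had means of 19.9 ± 0.53, 19.8 ± 4.12 and 19.5 ± 3.32 TPM and do not differ beyond their spread. No gene had an expected count of 0 in both libraries; the lowest was Col10a1, the collagen of hypertrophic cartilage, with 1 and 5 counts.

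**Figure D1:**
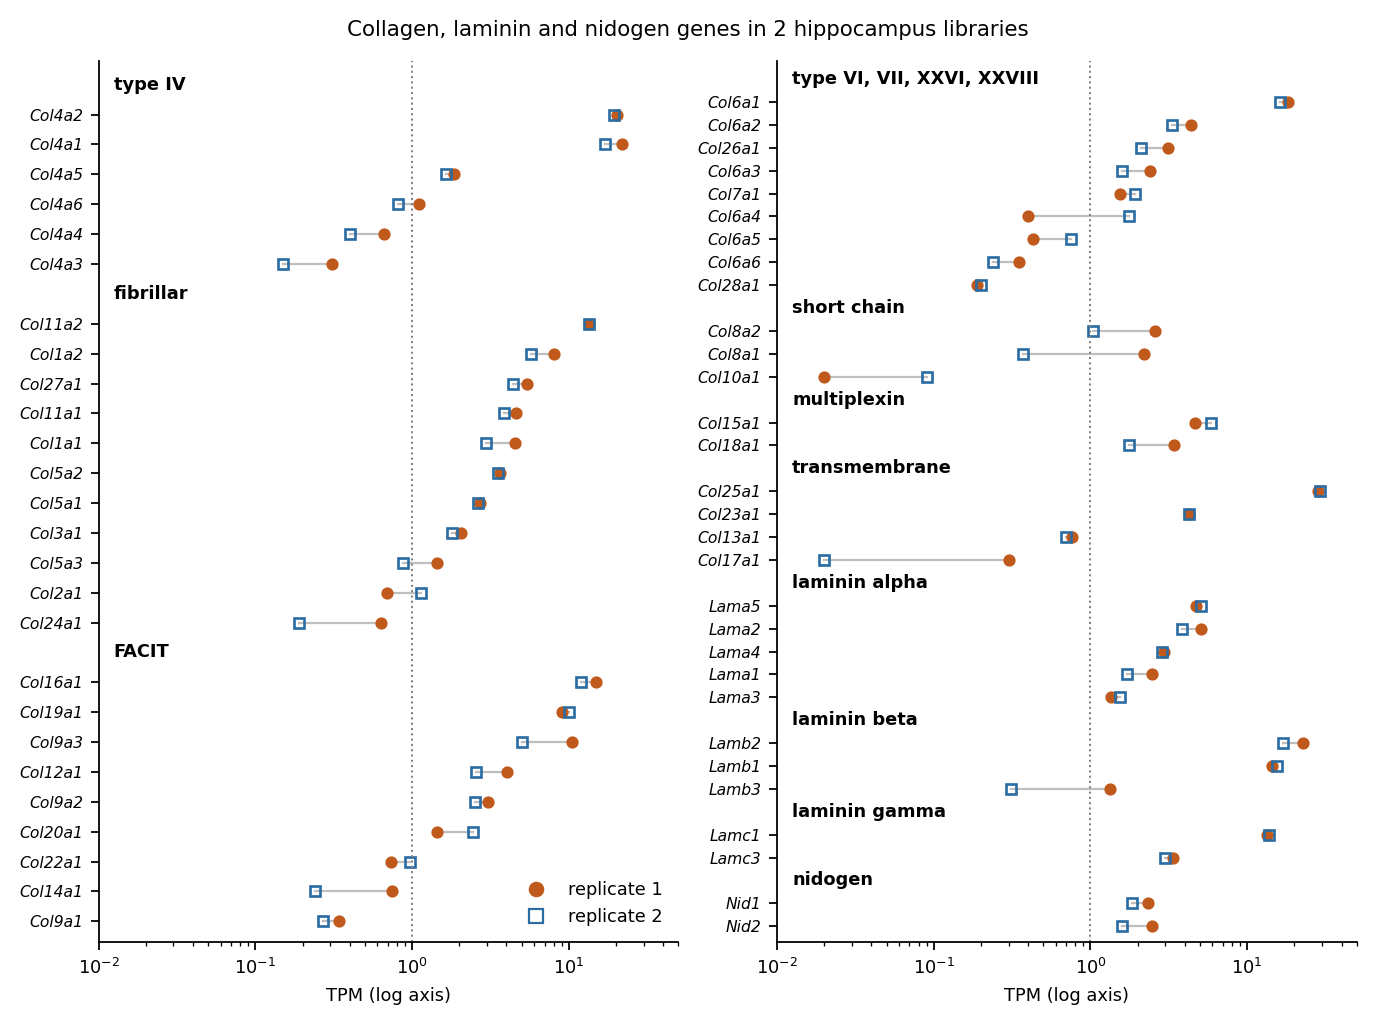
TPM of the matrix genes (log axis; 1 laminin is not drawn), grouped by subfamily, with filled circles for replicate 1, open squares for replicate 2 and a grey line joining them. The dotted line marks TPM of 1, which 39 genes reached in both libraries; Col25a1 lies furthest right at 28.1 and 28.9 TPM.

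Type IV collagen was carried almost wholly by its most common pair of chains. Col4a2 was measured at 20.3 TPM (replicate 1) and 19.5 TPM (replicate 2). Col4a1, whose product joins it in the heterotrimer of most basement membranes, stood at 21.8 and 17.1 TPM. By gene TPM the pair was at about the same level, with a log2 ratio of Col4a1 over Col4a2 of -0.04 ± 0.21 (SD, n = 2). Counted as reads per kilobase of the transcript with the longest coding sequence, the ratio was -0.59 ± 0.08, with Col4a1 lower. A short transcript enters here, as 48.5 reads on the 545-base Col4a1-203 counted as 6.01 TPM in replicate 1. Protein-coding transcripts held 12.29 and 11.45 TPM for Col4a1 and 19.88 and 19.5 TPM for Col4a2. Whether the pair was level was therefore not settled. The chains of specialised membranes, those of kidney glomerulus, cochlea and eye among them, were far lower. Col4a5 had 1.86 and 1.64 TPM, Col4a6 1.1 and 0.81 TPM, Col4a4 0.66 and 0.4 TPM, and Col4a3 0.31 and 0.15 TPM. All 6 type IV genes were lower in replicate 2 by the log2 ratio of scaled counts, with a median of -0.23, or 3 of 6 with spike-in scaling. The exact conditional binomial test, described with the library comparison, called Col4a1 (log2 ratio -0.17, adjusted p 0.00699) and Col4a3 (-1.05, adjusted p 0.0168) but not the other 4. The test called 9.13% of all genes lower in replicate 2. The 6 type IV genes together made up 15.6% ± 0.155 of the summed TPM of the matrix genes.

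The 6 type IV genes lie as 3 pairs that point away from each other, the arrangement known for this family in mammals. On the mm10 assembly Col4a1 (chromosome 8, 11198423 to 11312826, minus strand) and Col4a2 (chromosome 8, 11312805 to 11449287, plus strand) share 22 bases at their annotated 5′ ends. Col4a4 (chromosome 1, 82448423 to 82586849, minus strand) and Col4a3 (chromosome 1, 82586921 to 82722059, plus strand) are 71 bases apart, and Col4a6 (chromosome X, 141165403 to 141474076, minus strand) and Col4a5 (chromosome X, 141475385 to 141689234, plus strand) 1308 bases apart. The high pair and a low pair are shown because they differ in level and share this layout. Both stretches are RefSeq sequence of GRCm38.p6 on the plus strand, 5′ to 3′; capitals mark the 22 shared first-exon bases in the upper sequence (chr8:11312797-11312834), and the lower one (chr1:82586850-82586920) is the whole interval between the starts.
Col4a1 and Col4a2: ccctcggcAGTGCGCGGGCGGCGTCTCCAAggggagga
Col4a4 and Col4a3: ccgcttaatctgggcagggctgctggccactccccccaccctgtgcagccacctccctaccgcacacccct
The shared bases hold the letters GGGCGG, the core of the GC box that Sp-family factors bind. The interval between Col4a4 and Col4a3 holds neither GGGCGG nor CCAAT nor TATAAA on either strand. Promoter windows of 250 bases before to 50 after the start were found for 41 of the 57 genes, 4 of them with 2 windows. GGGCGG occurred on either strand in 27 of these 45 windows (60%) and in 35.7% of all 32851 windows, CCAAT in 15 (33.3%) and 37.4%, and TATAAA in 5 (11.1%) and 13.6%. The motifs do not overlap in their letters, and a match is a description only. Within the low pairs the genes were not level by TPM. The log2 ratio was 1.25 ± 0.23 for Col4a4 over Col4a3 and 0.89 ± 0.18 for Col4a5 over Col4a6 (SD, n = 2).

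Among the laminins, each cross-shaped trimer of an alpha, a beta and a gamma chain, 1 gamma chain and a pair of beta chains predominated. Lamc1, the gamma chain of most laminins, had 13.3 TPM in replicate 1 and 13.8 TPM in replicate 2. Lamc3 had 3.38 and 2.99 TPM. Lamc1 was 4.26-fold above Lamc3 by TPM, a log2 ratio of 2.09 ± 0.17. Of the beta chains, Lamb2, found in synaptic and mature vascular laminins, stood at 22.7 and 16.9 TPM, and Lamb1, found in early and vascular laminins, at 14.5 and 15.5 TPM. Which of the 2 was higher could not be settled: the log2 TPM ratio of Lamb2 over Lamb1 was 0.39 ± 0.37 and turned to -0.12 ± 0.25 when counts were taken per kilobase of the longest coding transcript. Short annotated Lamb2 transcripts enter here, as 22.1 reads on the 345-base transcript Lamb2-206 counted as 4.97 TPM in replicate 1. The full-length transcripts alone, Lamb2-201 at 10.9 and 9.97 TPM and Lamb1-201 at 10.5 and 12.2 TPM, gave a different order in each library. Lamb3, the beta chain of laminin-332, was the one laminin below TPM of 1 in a library, at 1.34 and 0.31 TPM from 53 and 29 counts.

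All 5 laminin alpha chains were detected, none above 6 TPM. Lama5, the alpha chain of mature vessel and pial membranes, had 4.73 and 5.1 TPM, and Lama2, made by astrocytes, mural cells and fibroblasts, 5.07 and 3.81 TPM. Lama4, the endothelial alpha chain, had 2.94 and 2.85 TPM, Lama1, known from pial membranes, 2.47 and 1.71 TPM, and Lama3, the alpha chain of laminin-332, 1.36 and 1.54 TPM. Lama5 and Lama2 do not differ beyond their spread, at 4.92 ± 0.262 and 4.44 ± 0.891 TPM. The exact binomial test with Benjamini-Hochberg adjustment called 9.13% of all genes lower in replicate 2. By scaled counts 4 of the 5 alpha chains were lower with an adjusted p under 0.05 in this test. Lama1 had a log2 ratio of -0.62 (adjusted p 1.04e-05) and Lama2 -0.44 (7.37e-05). Lama5 had -0.42 (3.33e-06) and Lama4 -0.41 (0.0192), by the same exact binomial test. With spike-in scaling the same 4 were still lower, at -0.14 to -0.35, and Lama1 alone was called. For Lama5 the TPM values went the other way; protein-coding transcripts held 62.6% ± 16.4 of its TPM. The nidogens, which link laminin to type IV collagen, were lower than Lamc1 and the main type IV chains that they bind. Nid1 had 2.33 and 1.83 TPM and Nid2 2.47 and 1.58 TPM, so the log2 ratio of Nid1 over Nid2 was 0.06 ± 0.21, or 0.58 ± 0.10 per kilobase of the longest coding transcript. Nid2 shares 437 exon bases with Rtraf on the opposite strand (21.9 and 23.7 TPM), and whether the counting used strand is not given in the sources used here. Both nidogens were lower in replicate 2, with log2 ratios of -0.38 (adjusted p 0.0299) and -0.52 (0.0291) by the same exact test; with spike-in scaling they were at -0.11 and -0.25 and not called (adjusted p 0.493 and 0.254).

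The fibrillar collagens, the rope-forming class of skin, bone and cartilage, were led not by type I but by a minor fibrillar chain. Col11a2, a chain of the thin cartilage fibrils of type XI, stood at 13.5 TPM in both libraries (mean 13.5 ± 0.0141). Col1a2 had 8.05 and 5.74 TPM and Col1a1 4.55 and 2.95 TPM, both higher in replicate 1. These are the chains of type I, the main collagen of fibroblasts, in which 2 alpha1 chains join 1 alpha2 chain. At the RNA level the order was the opposite, with a log2 TPM ratio of Col1a2 over Col1a1 of 0.89 ± 0.10. Col27a1, a cartilage collagen, had 5.4 and 4.38 TPM, and Col11a1 4.59 and 3.86 TPM. The type V chains, which start and thin the fibrils of type I, were at 3.64 and 3.55 TPM for Col5a2 and 2.73 and 2.64 TPM for Col5a1, nearly level between libraries. Col3a1, the chain of reticular fibres, had 2.04 and 1.8 TPM. Col5a3 (1.44 and 0.87 TPM), the cartilage collagen Col2a1 (0.69 and 1.14 TPM) and Col24a1 (0.63 and 0.19 TPM) were below TPM of 1 in at least 1 library. The scaled counts of Col1a1, Col1a2, Col5a3 and Col3a1 were lower in replicate 2, with log2 ratios of -0.72, -0.64, -0.65 and -0.58 and adjusted p of 9.23e-11, 5.13e-13, 0.00462 and 0.00455 by the exact binomial test. Those of the other 7 fibrillar genes lay between -0.48 and 0.25 and did not pass it. Over all genes 9.13% were called lower in replicate 2. With spike-in scaling Col1a1 and Col1a2 were still called lower, at -0.46 and -0.38, and the median of the 11 fibrillar genes turned from -0.12 to 0.15. By TMM the meningeal fibroblast markers were lower in the same library, 11 of 11, with a median log2 ratio of -0.73. The test did not call Dcn and Lum among them. Under spike-in scaling 9 markers were lower and 2 higher, with a median of -0.46. The part of fibroblasts in the fibrillar values was not tested.

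Fibril-associated collagens with interrupted helices (FACIT), which coat fibrils or join membranes to matrix, included a pair of genes near 10 TPM. Col16a1 had 14.8 and 11.9 TPM. Col19a1, made by hippocampal interneurons in mouse and needed there for inhibitory synapses, had 9.03 and 10 TPM. Col9a3, a chain of cartilage type IX, had 10.5 and 5.01 TPM, and its sister chains Col9a2 and Col9a1 3.07 and 2.52, and 0.34 and 0.27 TPM. The 3 chains of type IX, which form 1 heterotrimer in cartilage, thus spanned a wide range, Col9a3 lying 23.9-fold above Col9a1 (log2 4.58 ± 0.52). Col9a3 was 2-fold lower in replicate 2 by scaled counts (429 and 234 counts, adjusted p 1.31e-16, exact binomial test). It shares 234 exon bases with Tcfl5 on the opposite strand, which had 0.16 and 0.12 TPM. Col12a1, a collagen of tendon and fascia, had 4.04 and 2.57 TPM, and Col20a1 1.45 and 2.45 TPM. Col22a1 (0.73 and 0.97 TPM) and Col14a1 (0.74 and 0.24 TPM) stayed below TPM of 1 in both libraries, as did Col9a1.

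Type VI collagen, which forms beaded filaments next to basement membranes, was dominated by its alpha1 chain. Col6a1 had 18.1 and 16.1 TPM, Col6a2 4.4 and 3.31 TPM and Col6a3 2.4 and 1.6 TPM, although 1 copy of each chain makes up the common monomer. The log2 TPM ratio of Col6a1 was 2.16 ± 0.17 over Col6a2 and 3.13 ± 0.29 over Col6a3, and it kept this direction in the alignment-free table (2.20 ± 0.20 and 2.79 ± 0.34). The 3 chains that can take the place of Col6a3 were low, and 1 of them went against most other genes. Col6a4 rested on 27 counts in replicate 1 and 130 in replicate 2, or 0.4 and 1.75 TPM. It was 4.35-fold higher in replicate 2 by scaled counts (log2 ratio 2.12, adjusted p 1.02e-13, exact binomial test). Col6a5 had 0.43 and 0.75 TPM and Col6a6 0.35 and 0.24 TPM; their expected counts in replicate 1 were fractional (68.2 and 54.8), so some reads were divided, and their values are uncertain to that extent. Of the other collagens in this group, Col26a1 had 3.14 and 2.11 TPM and Col7a1, the anchoring fibril collagen of skin, 1.55 and 1.91 TPM. Their protein-coding transcripts alone were below TPM of 1 in both libraries, at 0.97 and 0.84 TPM for Col26a1 and 0.5 and 0.4 TPM for Col7a1. Col28a1, known from peripheral nerve, had 0.19 and 0.2 TPM.

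The short-chain collagens were further apart between the libraries than any other subfamily, and 1 of the multiplexins differed too. Col8a1, a chain of the hexagonal network of Descemet's membrane and of vessel walls, had 193 counts in replicate 1 and 34 in replicate 2, or 2.18 and 0.37 TPM. It was 6.13-fold lower in replicate 2 (log2 ratio -2.61, adjusted p 3.02e-29), and its partner Col8a2 2.55-fold lower (199 and 85 counts, 2.59 and 1.04 TPM, log2 ratio -1.35, adjusted p 2e-12), both by the exact binomial test. Both chains were therefore high in the same library. The authors' deposited table gives for Col8a1 a TPM interval of 1.83 to 2.44 in replicate 1 and 0.261 to 0.513 in replicate 2, which do not overlap. The multiplexins are basement membrane collagens that carry sugar chains and release endostatin-type fragments. Col18a1 had 3.43 and 1.75 TPM (log2 ratio -0.97, adjusted p 3.46e-11), and Col15a1 4.62 and 5.91 TPM (log2 ratio 0.10, adjusted p 0.724). Most Col18a1 reads, 248 and 146, were assigned to Col18a1-202, which begins at the upstream start (chromosome 10, 77166548), and 47.6 and 11.6 to Col18a1-201, which begins at 77113946. The choroid plexus markers, with a median log2 ratio of -2.65, were lower in replicate 2 as well, and their part in these values was not tested.

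Of the transmembrane collagens, Col25a1 had the highest alignment-based gene TPM of all 57 genes in both libraries. In the alignment-free table it came second in replicate 1, at 26.7 TPM against 29.6 TPM for Col4a1. Its protein-coding transcripts alone held 16.5 and 15.8 TPM, below those of Col4a2 (19.9 and 19.5 TPM), Lamb2 (18.1 and 15.9 TPM) and Col6a1 (17.9 and 16 TPM). It encodes the precursor of CLAC, a collagen-like component first found in amyloid plaques of Alzheimer disease, and is made by neurons. Col25a1 had 28.1 TPM in replicate 1 and 28.9 TPM in replicate 2, from 2274 and 2543 counts. Its log2 ratio between the libraries was 0.03 (adjusted p 0.667, exact binomial test), and its mean was 28.5 ± 0.594 TPM. Its TPM lay above that of 81.9% of protein-coding genes in replicate 1 and 81.7% in replicate 2. Col23a1 had 4.28 and 4.26 TPM, again level between libraries. Col13a1, which acts at the neuromuscular synapse, had 0.76 and 0.7 TPM, and Col17a1, the hemidesmosome collagen of skin, 0.3 and 0.02 TPM from 14 and 2 counts. Plaque protein itself was not measured, and with no mice lacking the transgenes analysed here the Col25a1 level cannot be tied to them.

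The transcript tables showed that gene-level values mixed coding and noncoding transcripts to different degrees. For Col25a1 the leading annotated transcript was Col25a1-204, classed as a target of nonsense-mediated decay (an mRNA quality check that removes transcripts with early stop codons), with 39.7% ± 1.97 of the gene's TPM. It led in the alignment-free table too, with 38.3% ± 2.56. Protein-coding transcripts held 56.8% ± 2.91 of the Col25a1 TPM, 61.6% ± 7.42 for Col4a1, 58.7% ± 8.45 for Col16a1, 65.6% ± 3.47 for Col19a1 and 55.9% ± 6.99 for Col15a1. For Col4a2 and Col6a1 they held 99.1% ± 1.29 and 98.9%. Of the 13 genes with a mean of at least 5 TPM and several transcripts, 11 kept 1 leading transcript across both tables and both libraries, against 71.6% of 9884 protein-coding genes at that level. The exceptions were Col4a1 and Col19a1. Col4a1 reads were divided between Col4a1-201 (coding, 742 and 977 counts) and Col4a1-208 (nonsense-mediated decay, 811 and 551 counts), with 6.28 and 7.74 against 7 and 4.45 TPM, so their order turned between the libraries. For Col19a1 the alignment-based table placed Col19a1-201 first (5.37 and 4.02 TPM) and the alignment-free table Col19a1-202. Gene totals were steadier than this division. The alignment-free count of a gene was at the median 1.15 times the alignment-based one in both libraries, and 0 of 53 matrix genes with a mean count of at least 20 lay more than 1.5-fold from that in both libraries, against 1.96% of 14108 protein-coding genes. The gene nearest to that limit was Col22a1, at 1.47 and 1.41 times the median ratio.

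**Figure D2:**
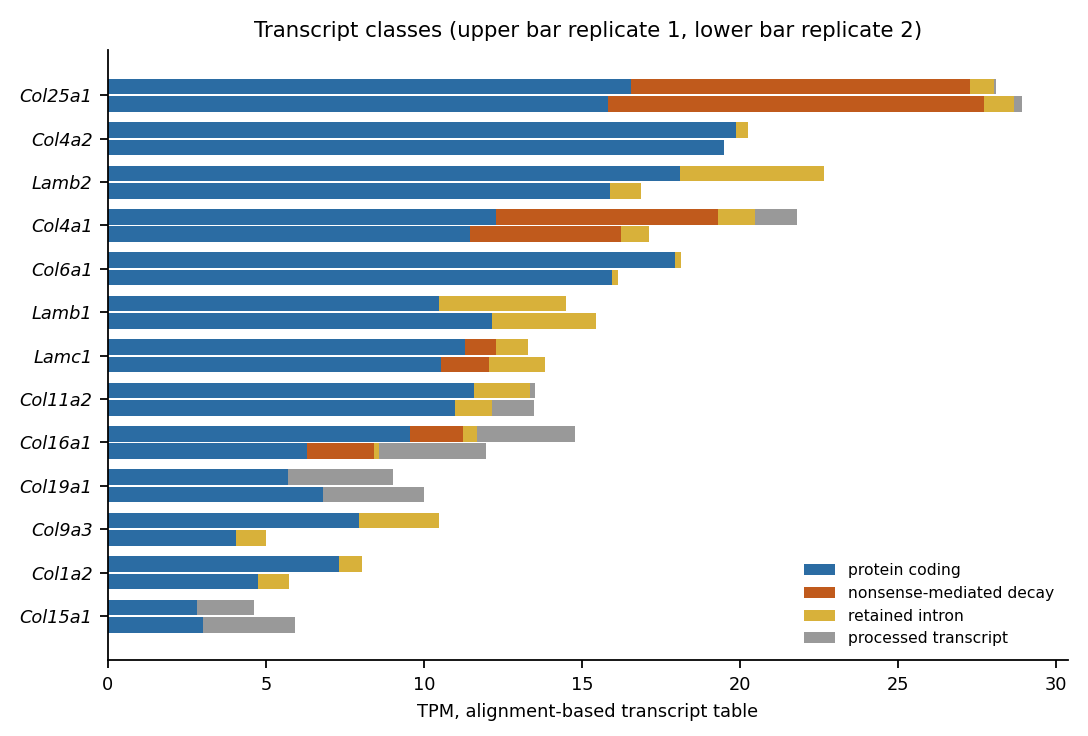
TPM of the 13 genes with a mean of at least 5 TPM, split by annotated transcript class, with the upper bar for replicate 1 and the lower for replicate 2. Col25a1 has the widest nonsense-mediated decay segment (10.8 and 11.9 TPM), and Col4a2 and Col6a1 are almost all protein coding.

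Many of the collagen genes share an exon length. Glycine opens each triplet of the helix, so a coding unit of 9 bases gives 1 triplet, and fibrillar collagen genes are known for exons of 54 bases, or 6 such units. In the transcript with the longest coding sequence, 305 of 627 internal coding exons (48.6%) of the 11 fibrillar genes had exactly 54 bases, and 83.9% were a multiple of 9. Other protein-coding genes had 698 such exons among 156794 (0.445%), and 13.7% were a multiple of 9. The FACIT genes had 26.3%, the transmembrane collagens 9.33%, the group of types VI, VII, XXVI and XXVIII 6.87%, the multiplexins 5.19% and the type IV genes 4.23%, and the laminins had 0 among 464. Genes within a class differed, as Col26a1 had none among 11 internal exons. Col24a1 and Col27a1 had the most, 33 each. Among the FACIT genes Col22a1 had the highest number, 28 of its 61 internal exons. Its share was not the highest, as Col9a2 and Col9a3 each had 14 of 30. For type IV 47.2% of the internal exons were a multiple of 9, while 12 of 284 had 54 bases. This was not particular to type IV. Such multiples made up 70.7% in the transmembrane collagens, 55.1% in the FACIT genes and 37.7% in the multiplexins. In the group of types VI, VII, XXVI and XXVIII they made up 55.2%. The short-chain genes Col8a1, Col8a2 and Col10a1 have 2 coding exons each and thus no internal one. Col7a1, with 118 coding exons, had the most of all 57 genes, against a median of 6 in other protein-coding genes.

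An exon of 54 bases from the highest fibrillar, FACIT and transmembrane gene is shown to make the triplet visible. Each is the first such exon whose 6 triplets all open with a glycine codon, in reading frame on the plus strand, from the GENCODE M21 transcripts on mm10, and capitals mark the glycine codons. They are coding exon 15 of Col11a2 (chr17:34051480-34051533), coding exon 33 of Col16a1 (chr4:130067219-130067272) and coding exon 13 of Col25a1 (chr3:130517684-130517737).
Col11a2: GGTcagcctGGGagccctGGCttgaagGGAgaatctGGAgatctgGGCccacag
Col16a1: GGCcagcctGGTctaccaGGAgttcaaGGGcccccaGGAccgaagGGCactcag
Col25a1: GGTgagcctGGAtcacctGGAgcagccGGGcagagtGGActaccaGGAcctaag
The number of glycine codons follows from how the exons were chosen.

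**Figure D3:**
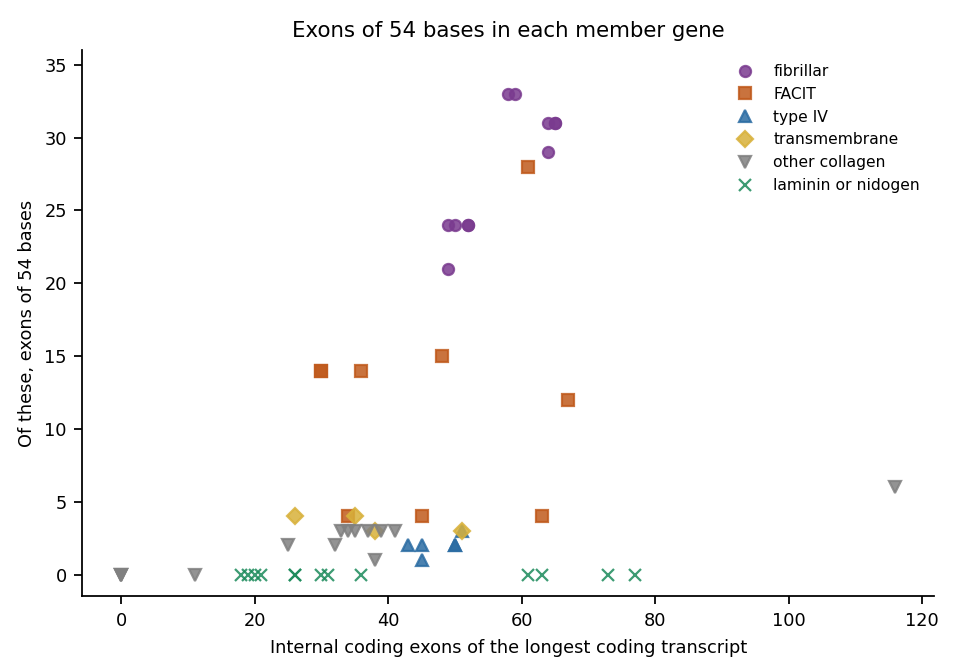
Internal coding exons of the longest coding transcript (horizontal axis) and how many of them have exactly 54 bases (vertical axis), 1 point per gene. Fibrillar genes lie between 21 and 33 exons of 54 bases, while all laminins and nidogens lie at 0.

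Between the libraries, the matrix genes leaned to lower values in replicate 2. Of 53 genes averaging 20 expected counts or more, 44 were lower and 9 higher in replicate 2 after TMM scaling, with a median log2 ratio of -0.25; over all 16971 genes compared the median was 0.00 and 50.2% were lower. The median absolute log2 ratio was 0.27, against 0.12 over all genes. With spike-in scaling 26 were lower and 27 higher, with a median of 0.01 that is to be read against the 0.27 of all genes. Relative to all genes the matrix genes were at -0.25 with either scaling. A change of scaling shifts all genes by nearly the same amount, so this sameness follows from the method and is no separate result. An exact conditional binomial test on the counts, two-sided, with Benjamini-Hochberg adjustment over all genes, compares these libraries and no condition. It called 24 matrix genes lower in replicate 2 (9.13% of all genes) and 2 higher (9.29% of all genes), the latter being Col6a4 and Lamb1 (log2 ratio 0.15, adjusted p 0.0434). Lamb1 was no longer called with library size scaling (adjusted p 0.0599, exact binomial test) or with no minimum count (0.065). With spike-in scaling 12 matrix genes were called lower and 12 higher, against 440 lower and 9597 higher over all genes. Of the 24 matrix genes called lower with TMM scaling, 16 were collagens, 6 laminins and 2 nidogens.

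More than 2-fold apart were 6 genes, all collagens. Col8a1, Col14a1, Col8a2, Col4a3 and Col9a3 were lower in replicate 2, where 1.54% of all genes were, and Col6a4 was higher, where 0.465% were. Col14a1, a FACIT collagen of tendon and skin, had 71 counts in replicate 1 and 19 in replicate 2, 4-fold lower after scaling (adjusted p 5.76e-08, exact binomial test). Col4a3 rested on 48 and 25 counts (log2 ratio -1.05, adjusted p 0.0168, exact binomial test). With spike-in scaling Col9a3 and Col4a3 fell under 2-fold, at log2 ratios of -0.73 and -0.79, and with alignment-free counts at -0.93 and -0.83. Lamb3 (log2 ratio -0.99) and Col18a1 (-0.97) lay just under the threshold and Col9a3 just past it. The 10 genes highest by TPM had log2 ratios between -0.21 and 0.16. The exact binomial test called 4 of them lower, Lamb2 (-0.21, adjusted p 0.00598), Col4a1 (-0.17, 0.00699), Col6a1 (-0.20, 0.00474) and Col16a1 (-0.21, 0.0417), and Lamb1 higher. With spike-in scaling these 4 were at 0.05 to 0.09 and not called, and Col16a1 was not called with DESeq2 size factors either (adjusted p 0.0642, exact binomial test). The test did not call Col25a1, Col4a2, Lamc1, Col11a2 and Col19a1, with log2 ratios of 0.03, -0.06, -0.05, -0.09 and 0.16 (adjusted p 0.667, 0.32, 0.541, 0.289 and 0.143, exact binomial test).

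**Figure D4:**
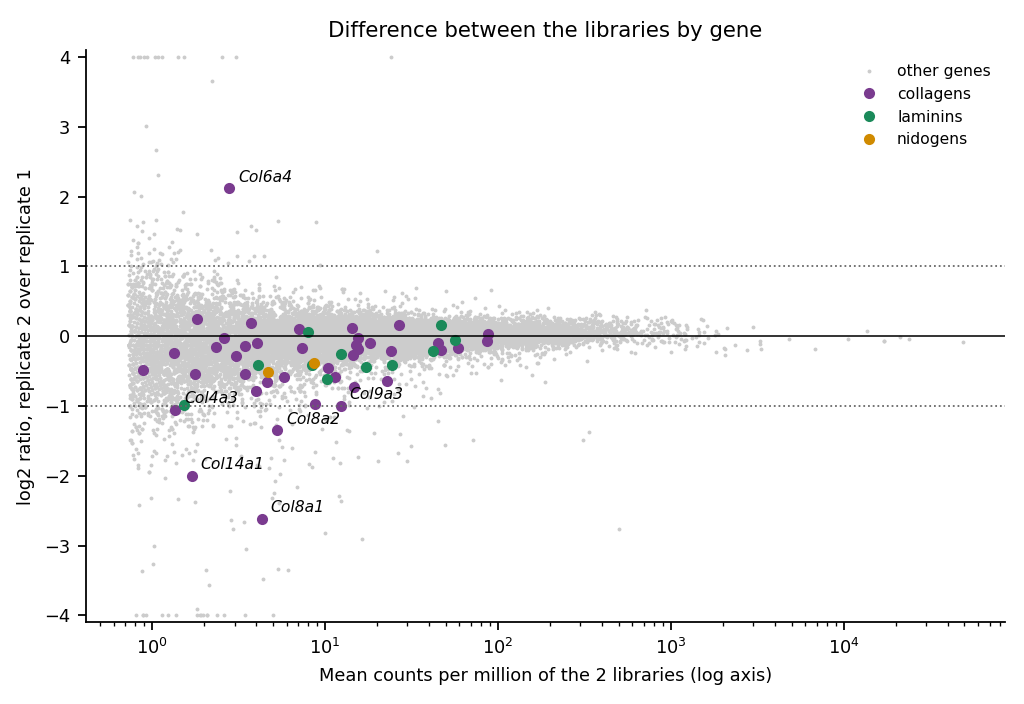
Log2 ratio of replicate 2 over replicate 1 against the mean CPM (log axis) for 16971 genes, with the 53 matrix genes in colour, other genes in grey and ratios past 4 drawn at 4; dotted lines mark 2-fold. The matrix genes past 2-fold are named, and Col6a4 is the only one of them above 0.

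With TMM scaling the medians of the subfamilies lay between -0.12 for the fibrillar genes and -1.98 for the 2 short-chain genes compared. Laminin alpha chains had -0.42, nidogens -0.45, type IV -0.23 and laminin gamma chains -0.25. With spike-in scaling the short-chain, multiplexin, laminin alpha and nidogen medians stayed below 0 and the other 7 did not. Endothelial and mural markers had TMM medians of -0.22 and -0.23. Col4a1 and Col4a2, the main type IV chains, had a median of -0.12. By TMM, hippocampal neuron markers were higher in replicate 2, 8 of 8, with a median of 0.15. Astrocyte markers were near level at -0.03. Spike-in scaling gave medians of 0.04 for endothelial, 0.03 for mural, 0.41 for hippocampal neuron and 0.23 for astrocyte markers. The median of all genes was then 0.27, and that of Col4a1 and Col4a2 was 0.15. The part of these cell types in the matrix genes' ratios was not tested.

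**Figure D5:**
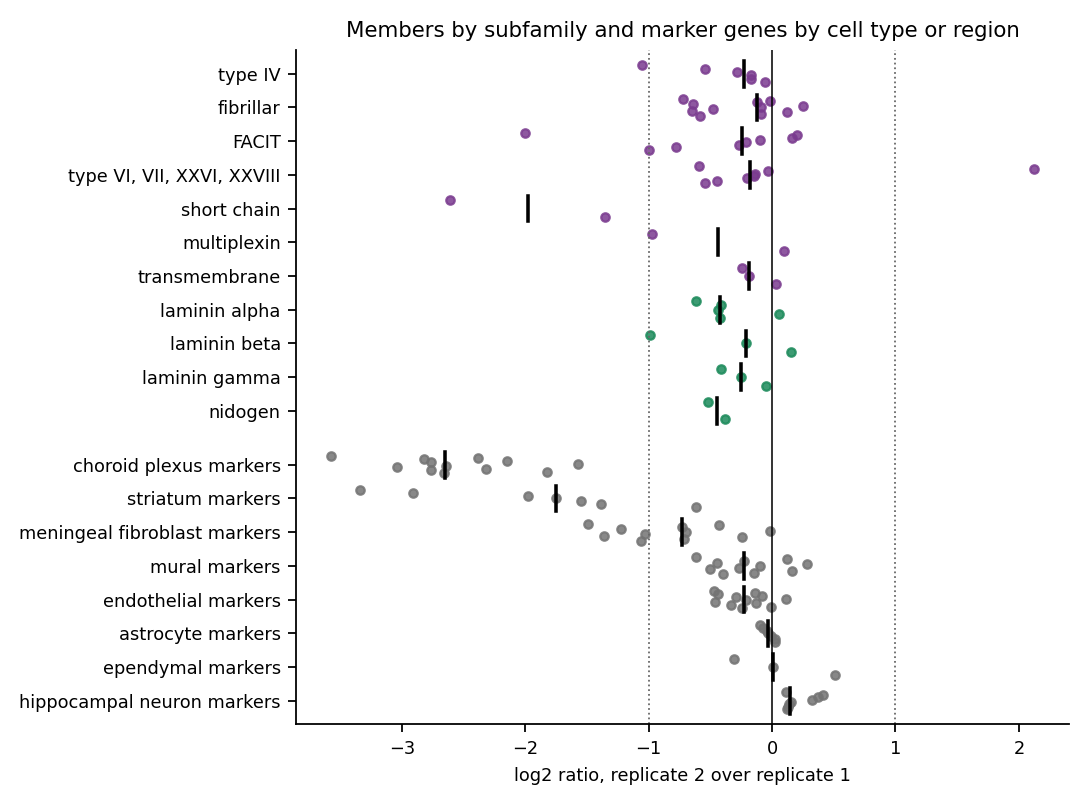
Log2 ratio of replicate 2 over replicate 1 for each gene with a mean count of at least 20, by matrix subfamily (coloured) and by marker list (grey), with a black bar at each median and dotted lines at 2-fold. Choroid plexus markers lie lowest (median -2.65), and the short-chain collagens (median -1.98) are the only matrix subfamily whose points all lie past 2-fold.

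Genes that make, bind and cut these proteins were read beside them. Collagen biosynthesis, from prolyl hydroxylation to secretion and crosslinking, had 27 of the 31 genes found in the annotation at 1 TPM or more in each library, where 60.5% of all protein-coding genes were. Mia3, which loads collagen into transport carriers, had 92.4 and 96.5 TPM, Ppib, a prolyl isomerase of the endoplasmic reticulum, 83.2 and 91 TPM, and P4hb, a subunit of prolyl 4-hydroxylase, 56.7 and 59.2 TPM. Mia3 and P4hb had similar counts, 1867 and 2025 against 1914 and 1985. Their order by TPM therefore rests on the transcript lengths used. The crosslinking enzymes Lox, Loxl2 and Loxl4 were below TPM of 1 in at least 1 library, as was the procollagen protease Adamts14. The exact binomial test called 2 of the 30 genes compared lower in replicate 2 and 1 higher, against 9.13% and 9.29% of all genes. By direction 19 were lower and 11 higher, with a median log2 ratio of -0.06. Spike-in scaling gave 5 lower and 25 higher, with a median of 0.20. The 1 gene past 2-fold was Pcolce, an enhancer of procollagen cleavage, at 9.33 and 4.2 TPM (log2 ratio -1.26, adjusted p 2.69e-13, exact binomial test).

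Basement membrane partners had a median of 5.92 and 5.58 TPM. Sparc, a collagen-binding glycoprotein, had 191 and 162 TPM, Agrn, a heparan sulfate proteoglycan that binds laminin, 63.1 and 64.4 TPM, and Pxdn, the peroxidase that crosslinks type IV collagen, 28.6 and 31.2 TPM. Of the 20 partners, 19 reached 1 TPM in each library (60.5% of protein-coding genes) and 15 were lower in replicate 2 (median log2 ratio -0.27), or 10 with spike-in scaling. The exact binomial test called 9 of the 20 lower and 2 higher, against 9.13% and 9.29% of all genes. Fbln5, which organises elastic fibres, was past 2-fold at 4.63 and 2.08 TPM (log2 ratio -1.27, adjusted p 5.78e-11, exact binomial test).

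Of 17 receptors for collagen and laminin compared, 14 were lower and 3 higher in replicate 2 (median log2 ratio -0.12), or 6 lower and 11 higher with spike-in scaling. Adgrg1, an adhesion receptor that binds collagen III, had 44.6 and 36.4 TPM, Ddr1, a collagen-activated kinase, 38.3 and 37.2 TPM, and Dag1, the laminin-binding dystroglycan, 31.7 and 32.2 TPM. Of 19 receptors, 15 reached 1 TPM in each library (60.5% of protein-coding genes), none was past 2-fold, and the test called 5 of 17 lower in replicate 2 and 2 higher, beside the same 9.13% and 9.29% of all genes. Of 21 matrix-degrading enzymes and their inhibitors, 14 reached 1 TPM in each library, again beside 60.5%. Ctsb, a lysosomal protease, had 296 and 308 TPM, Timp2, a metalloprotease inhibitor, 125 and 122 TPM, and Mmp17, a membrane-bound metalloprotease, 38.9 and 45.8 TPM. The gelatinases, which cut type IV collagen, moved apart: Mmp2 had 3.92 and 1.21 TPM (log2 ratio -1.30, adjusted p 2.28e-09) and Mmp9 0.38 and 0.97 TPM (log2 ratio 1.02, adjusted p 0.0324), by the exact binomial test. The Mmp9 values rested on 21 and 47 counts.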

How the data were processed

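Directional, ribosome-reduced libraries with ERCC spike-ins were made from 300 ng of total hippocampal RNA each, per the labels. Expected counts and TPM per gene and per transcript, on mm10 with GENCODE M21, were deposited by the authors; neither the aligner nor the quantifiers, nor any use of strand in counting, is named in the labels or headers. The percent of a gene's TPM per transcript, FPKM values, posterior mean TPM and a score column with bounds of each TPM interval were made by the authors, per the file headers. Alignment-free estimated counts and TPM were deposited per transcript and summed per gene here.

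The 57 genes and all gene lists were chosen with earlier results of these data known. Every member is described, except 1 that is not reported here; partner genes named are the 3 of highest mean TPM in each list and any past 2-fold, with those below TPM of 1 in the biosynthesis list added after their values were seen. Counts were rounded for tests and scaled by TMM (edgeR 4.0.16, R 4.3.3). Log2 ratios used a prior count of 0.5 and genes with a mean count of at least 20. The exact conditional binomial test used scipy 1.17.1 (Python 3.11.15) with the Benjamini-Hochberg adjustment over 16971 genes and a threshold of 0.05; replication on each side is lacking, so it measures counting error between these libraries. Alternatives were DESeq2 1.42.0 size factors, library size, spike-in scaling, other count minimums, TPM thresholds and priors, FPKM, posterior mean and alignment-free values, leaving out each library and, chosen after seeing the data, reads per kilobase of the longest coding transcript. Of 32 collagen biosynthesis names, 31 were found in the annotation. Expected counts were whole (within 0.005) in both libraries for 53 of the 57 genes; Col6a5, Col6a6, Col3a1 and Nid1 had fractional ones. Exon and gene positions came from GENCODE M21 and promoter windows from RefSeq (GRCm38.p6). The steps were tested on simulated data.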

Additional observations from a re-analysis of the deposited data

How the results depend on the processing

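No paired analysis was possible because both libraries belong to 1 group. The number of genes at TPM of at least 1 lay between 27 and 44 over other thresholds (27 at TPM of 2, 44 at TPM of 0.5), FPKM, posterior means, alignment-free values, reads per kilobase (28) and single libraries, against 39. Spike-in scaling moved the median log2 ratio of the matrix genes from -0.25 to 0.01, and the other scalings, minimums, priors and counts gave -0.23 to -0.28. Under spike-in scaling 4 of the 26 called genes changed sign, Col6a1 to 0.07, Col4a1 to 0.09, Col16a1 to 0.05 and Lamb2 to 0.06; these 4 then had adjusted p between 0.102 and 0.611 (exact binomial test), and 8 more were no longer called. All 26 kept their direction and call with alignment-free counts and with a prior count of 2. DESeq2 size factors lost the call of Col16a1 (adjusted p 0.0642), library size that of Lamb1 (0.0599), and no minimum count both (0.0625 and 0.065, exact binomial test). Past 2-fold were 6 genes, or 3 with a minimum of 100 counts (fewer genes compared), 4 with spike-in scaling, 4 with alignment-free counts, 5 with DESeq2 size factors, 5 with a prior count of 2 and 8 with no minimum count. The log2 ratio of Col4a1 over Col4a2 was 0.24 with alignment-free TPM and -0.59 per kilobase of the longest coding transcript. On that scale Lamb2 over Lamb1 turned to -0.12 and Nid1 over Nid2 went to 0.58. The type IV share of the summed level was 15.3% with posterior means, 18.7% with alignment-free TPM and 14.8% per kilobase, and the laminin share 23.3% with alignment-free TPM and 20.3% per kilobase. Spike-in scaling shifts all genes by nearly the same amount, 0.27 at their median. The cause of the other moves was not tested. Depth limits the genes under 100 counts, among them Col14a1, Col4a3 and Lamb3.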
